A study of Mus musculus with 9 samples.

Results

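Transcript levels of 8 genes of the Hippo pathway were read from RNA-seq of MC38 cells, a mouse colorectal cancer cell line. The 8 genes were the rows of the deposited expression table whose gene symbol was Yap1, Wwtr1, Tead1, Lats1, Lats2, Amotl2, Ankrd1 or Axl, out of 16509 genes in the table, and all 8 passed the filter on low counts that left 11949 genes for testing. The rule named the genes and used no measured value, but the names were picked with earlier results of these data known, so their share of calls is a description. The study compared 3 groups of 3 libraries each. Ctrl cells received vehicle, which the sample labels give as DMSO and the methods text as PBS. Cu-Cys cells received a copper-cystine coordination product. Cadict cells received the complete EGFR-targeted nanodrug. In it copper and cystine are joined with glucose oxidase (GOx), an enzyme that consumes glucose, and with a peptide conjugate. The conjugate is the EGFR-binding peptide GE11 on DSPE-PEG, a lipid anchor with a polymer linker. Dose and exposure time of the sequenced cells are not given in the sources used here. All groups were bulk cultures of 1 cell line, nothing in the labels ties the replicates to separate cultures, and the p-values therefore measure only the spread between these libraries, which may be technical.

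The Hippo pathway is a kinase cascade that restrains growth in response to cell contact, cytoskeletal tension and nutrient state. Active Lats kinases phosphorylate the coactivators Yap1 and Taz (the product of Wwtr1), which are then held in the cytoplasm or degraded. When the cascade is quiet, the coactivators enter the nucleus, bind Tead transcription factors and switch on target genes, among them Ankrd1, Axl, Amotl2 and Lats2. The last 2 of these feed back, because angiomotin proteins bind Yap1 and Lats2 phosphorylates it. Control of the pathway acts mainly on protein phosphorylation and location, which transcript counts do not measure.

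Tead factors recognise the motif GGAATG, or CATTCC on the other strand. It was searched on both strands in promoter windows that run from 250 bases before to 50 bases after an annotated start (RefSeq, GRCm38.p6), and 6 of the 7 genes with a window held at least 1 match, against 13.9% of the 9550 tested genes with a window and 14.7% of all 32851 windows. In the wider list of Yap1 target genes used below, which includes Ankrd1, Axl, Amotl2 and Lats2, 7 of 15 genes with a window (46.7%) held a match. The stretches around the matches of the 6 genes are shown here. They set the direct Tead recognition letters of the targets beside those of the coactivator genes. The capitals mark the motif, each stretch is read 5′ to 3′ on the strand of its gene, and the matches are descriptions of these letters, not measured binding sites.

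Ankrd1, chr19:36120037-36120066, minus strand, motif from position -210: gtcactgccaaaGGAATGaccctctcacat

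Ankrd1, chr19:36119950-36119979, minus strand, motif from position -123: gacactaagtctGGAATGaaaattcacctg

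Axl, chr7:25788949-25788978, minus strand, motif from position -233: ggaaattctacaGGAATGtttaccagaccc

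Amotl2, chr9:102717727-102717756, plus strand, motif from position -65: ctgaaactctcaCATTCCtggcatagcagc

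Lats2, chr14:57746102-57746131, minus strand, motif from position 5: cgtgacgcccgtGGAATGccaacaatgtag

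Yap1, chr9:8004720-8004749, minus strand, motif from position -141: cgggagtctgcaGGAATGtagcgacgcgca

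Wwtr1, chr3:57576029-57576058, minus strand, motif from position -136: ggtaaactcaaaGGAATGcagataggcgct

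Of the genes with a match, the 4 known targets and the 2 coactivators all had the motif upstream of the start except Lats2, whose match lay just inside the transcript. Ankrd1 was the member with 2 matches, both in the same orientation. The motif did not sort the genes by their change, since the windows of Lats2, which rose most under Cadict, and of Axl, which fell, both held it.

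The libraries were alike in depth, with 17905771 to 18293056 expected counts each, but not in composition. TMM, a scaling that centres most genes between libraries, gave factors of 1.26 to 1.27 for Ctrl, 1.21 for Cu-Cys and 0.640 to 0.665 for Cadict. Over all tested genes the median log2 fold change between Cadict and Ctrl was -0.13 under TMM and -1.08 when libraries were scaled by their totals, a shift of -0.95, and the share of called genes that were higher in Cadict went from 43.3% to 11.9%. For Cadict against Cu-Cys this share went from 44.1% to 10.8%. Changes are given under TMM as CPM (counts relative to the scaled size of the library). For Cadict against Ctrl, the position of each gene among all tested genes, which a scaling hardly moves, is given beside them. Cadict replicate 2 stood apart, with a chi-square per degree of freedom of 14.7 and 23.2 to its fellow libraries against 3.64 between those, so results were also computed without it.

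Compared per length, as FPKM, the order of the 8 genes in Ctrl cells ran from the receptor tyrosine kinase Axl at 280 ± 0.777 (SD, n = 3) through Ankrd1 at 131 ± 1.54, Amotl2 at 65.0 ± 1.74, Wwtr1 at 43.5 ± 2.22, Yap1 at 42.4 ± 0.471, Tead1 at 24.3 ± 0.335 and Lats1 at 13.6 ± 0.585 to Lats2 at 12.7 ± 0.286. Of the neighbours in this order, Wwtr1 and Yap1 overlapped between libraries and the other pairs did not. In Cu-Cys cells Yap1 stood above Wwtr1, at 46.2 ± 1.10 against 39.5 ± 2.49, and the ranges of Lats1 and Lats2 overlapped. In Cadict cells the range of Axl, 116 to 125 FPKM, overlapped that of Ankrd1, 111 to 120, and the ranges of Amotl2 and Wwtr1 overlapped. Lats2 at 24.5 ± 3.11 FPKM overlapped Tead1 at 26.2 ± 3.49, and Lats1 was last at 5.95 ± 0.586.

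Under TMM, Cadict cells differed from Ctrl cells in all 8 genes at an adjusted p no higher than 0.05. Lats1, Tead1 and Amotl2 did not pass that level under every setting, as given below. On the TMM scale Lats2, Wwtr1, Amotl2 and Tead1 rose at least 2-fold, Ankrd1 and Yap1 rose by less, and Lats1 and Axl fell by less than 2-fold. On library totals the signs of Yap1 and Ankrd1 turned, on TPM those of Tead1 and Amotl2 turned as well, and on both scales Lats1 and Axl fell more than 2-fold. Lats2, at 3.90-fold under TMM, and Wwtr1, at 3.21-fold under TMM, were higher under every scaling tried, but by differing amounts. On TPM their log2 fold changes were 0.58 and 0.37 (adjusted p = 0.000558 and 0.00764, limma). At the study's threshold (a change of 2-fold or more with an adjusted p no higher than 0.001, in the quasi-likelihood test of edgeR with p-values adjusted by Benjamini-Hochberg), 4 of the 8 genes were called higher and 0 lower, against 20.7% of all tested genes called higher and 27.1% called lower. On library totals the split was 1 higher (Lats2) and 2 lower (Lats1 and Axl), against 6.93% and 51.5% of tested genes. With limma on FPKM or TPM it was 0 higher and 2 lower, again Lats1 and Axl. Of all tested genes, limma called 5.13% higher and 41.5% lower on FPKM with a pseudocount of 1, and 3.26% and 54.2% on TPM. On FPKM with a pseudocount of 0.1 these shares were 6.53% and 50.2%. In the edgeR test at an adjusted p no higher than 0.05 alone, 6 were higher and 2 lower, where 40.6% of tested genes were higher and 47.1% lower. At an unadjusted p under 0.05 the counts were also 6 and 2, against 4886 and 5651 of the 11949 tested genes. The 8 genes had a median log2 fold change of 0.93 against -0.13 over all tested genes, and of -0.03 against -1.08 on library totals.

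**Figure D1:**
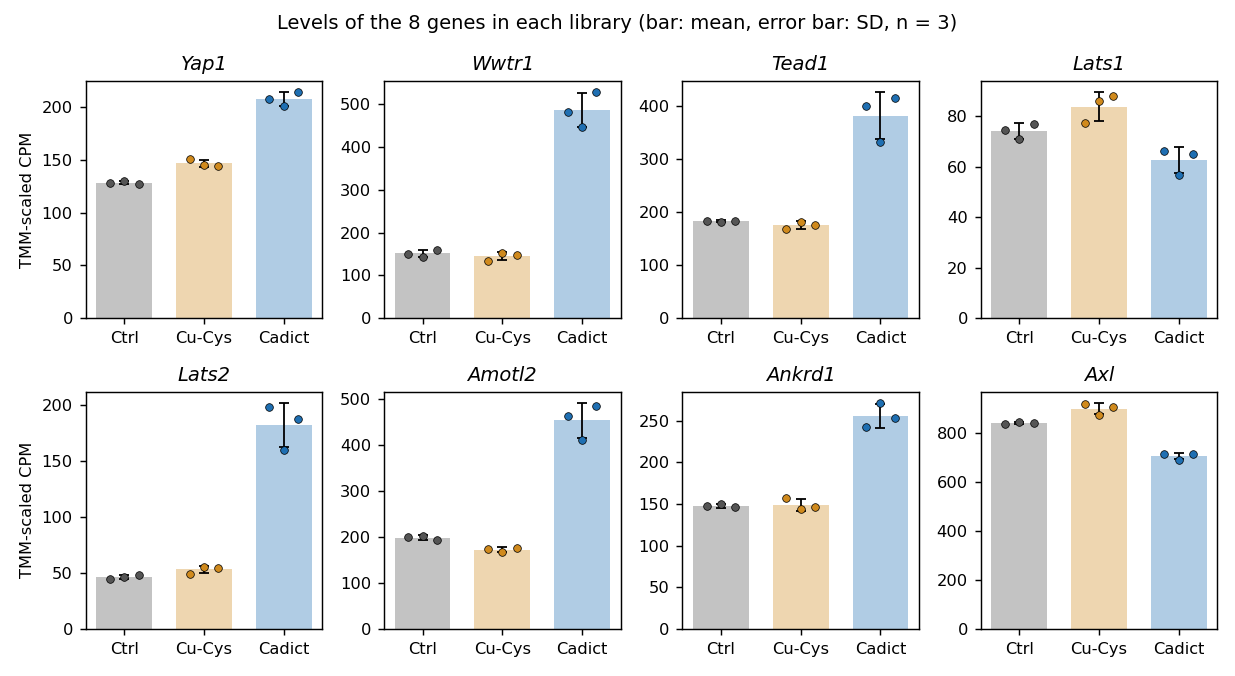
Level of each of the 8 genes in every library, in TMM-scaled CPM on the y axis, by group on the x axis; bars are means, error bars SD over 3 libraries and points single libraries in order of replicate number. The Cadict points of Wwtr1, Tead1, Lats2 and Amotl2 sit above all Ctrl and Cu-Cys points, and those of Lats1 and Axl below them.

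Yap1, the coactivator that gives the pathway its main readout, was measured at 128, 129 and 127 CPM in Ctrl, at 150, 145 and 144 CPM in Cu-Cys and at 207, 200 and 214 CPM in Cadict. The 3 groups did not overlap, and Cadict was highest on this scale. The log2 fold change of Cadict against Ctrl was 0.69 (SE 0.05, adjusted p = 9.11e-10 by the same edgeR test), and it became -0.26 (adjusted p = 0.000183) on library totals, where FPKM was 35.3 ± 1.81 in Cadict against 42.4 ± 0.471 in Ctrl. Among all tested genes, 71.8% had a lower log2 fold change than Yap1.

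Wwtr1 encodes Taz, the paralog of Yap1. It stood at 151, 144 and 159 CPM in Ctrl, at 134, 152 and 147 CPM in Cu-Cys and at 483, 448 and 528 CPM in Cadict. Ctrl and Cu-Cys overlapped, and every Cadict library was far above both. Cadict differed from Ctrl by a log2 fold change of 1.68 (SE 0.07, adjusted p = 1.55e-12, edgeR), it was still 0.73 on library totals, and 89.8% of tested genes had a lower one.

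Within each library the ratio of Wwtr1 to Yap1 does not depend on how libraries are scaled against each other. Wwtr1 made up 50.6% ± 1.53 of the summed FPKM of both genes in Ctrl, 46.0% ± 2.11 in Cu-Cys and 67.0% ± 1.11 in Cadict (SD, n = 3 each), and the groups did not overlap. The log2 ratio was 0.99 higher in Cadict than in Ctrl, a factor of 1.99 (2-sided exact permutation test, p = 0.1, which is the smallest p that 3 against 3 libraries allow, and 0.12 after Benjamini-Hochberg adjustment over 6 ratio tests). It was 0.26 lower in Cu-Cys than in Ctrl, with a log2 difference of -0.26 and the same exact p = 0.1.

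Tead1, a DNA-binding partner of both coactivators, was at 184, 181 and 183 CPM in Ctrl, at 169, 182 and 176 CPM in Cu-Cys and at 399, 332 and 415 CPM in Cadict. The Cadict libraries were all above the others, with replicate 2 lowest. The log2 fold change of Cadict against Ctrl was 1.07 (SE 0.07, adjusted p = 5.41e-10, edgeR), but 0.11 (adjusted p = 0.163) on library totals and -0.23 (adjusted p = 0.0873, limma) on TPM. Without Cadict replicate 3 it was 0.9995, just under a 2-fold change, which left 3 of the 8 genes called. With no filter on low counts it was 0.985, which also left 3, and without Cadict replicate 2 it was 1.16. Among all tested genes, 80.2% had a lower log2 fold change than Tead1.

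The other Tead genes, described after their values were seen and with no ratio test, did not share this change. Tead1 held 29.9% ± 0.772 of the summed FPKM of the 4 Tead genes in Ctrl, 27.1% ± 1.26 in Cu-Cys and 64.9% ± 3.06 in Cadict. Tead2 was the most abundant of the family in Ctrl with 44.5% ± 0.619 and went to 17.4% ± 2.64 in Cadict, and Tead4 went from 17.5% ± 0.432 to 9.80% ± 0.859. Tead2 fell with a log2 fold change of -1.41 (adjusted p = 2.48e-11) and Tead4 with -0.91 (adjusted p = 8.45e-09) by the edgeR test. Tead3 was at -0.11 (adjusted p = 0.313), with a sign that turned to 0.01 under DESeq2 size factors.

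Lats1 and Lats2 are the kinases that phosphorylate Yap1 and Taz directly, and they moved apart. Lats1 was at 74.5, 70.8 and 76.9 CPM in Ctrl, at 77.2, 86.0 and 87.9 CPM in Cu-Cys and at 66.1, 56.8 and 65.0 CPM in Cadict. All Cadict libraries lay below all Ctrl libraries. The log2 fold change was -0.24 (SE 0.07, adjusted p = 0.00432, edgeR), and it did not pass the test under DESeq2 size factors (-0.12, adjusted p = 0.114), under the deposited size factors (-0.15, adjusted p = 0.0613) or by DESeq2's Wald test (-0.16, adjusted p = 0.0785). On library totals it was -1.19 (adjusted p = 1.75e-10, edgeR), and with limma it was -1.08 on FPKM with a pseudocount of 1 and -1.43 on TPM (adjusted p = 6.65e-08 and 5.03e-08), past the study's threshold in each. Lats1 was near the middle of the tested genes, 47.0% of which had a lower log2 fold change.

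Lats2, which is also a target of the coactivators, was at 44.6, 46.7 and 48.3 CPM in Ctrl, at 49.3, 55.5 and 54.2 CPM in Cu-Cys and at 198, 160 and 187 CPM in Cadict. The Cadict libraries were all above the rest, and of the 8 genes this was the largest rise under TMM. Against Ctrl this was a log2 fold change of 1.96 (SE 0.08, adjusted p = 1e-12, edgeR), of 1.01 on library totals and of 2.05 without Cadict replicate 2, and 92.8% of tested genes had a lower one. In the GENCODE M21 transcripts 41.2% of the 50-base stretches of Lats2 also occur in Gm49361, an overlapping gene model on the same strand that is not a row of the table, so the count of Lats2 is uncertain where reads could be assigned to either.

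Lats2 made up 48.2% ± 1.39 of the summed FPKM of both Lats genes in Ctrl, 47.6% ± 0.627 in Cu-Cys and 80.4% ± 0.531 in Cadict. The log2 ratio of Lats2 to Lats1 was 2.14 higher in Cadict than in Ctrl, a factor of 4.42, with the smallest exact permutation p the design allows (p = 0.1, adjusted 0.12). Between Cu-Cys and Ctrl the difference was -0.04, with an exact permutation p of 0.7 and a sign that turned to 0.01 with expected counts in place of FPKM. Whether the length that the authors' counting assigned to Lats2 bears on this was not tested; that effective length was 4.58 to 4.76 kb in Ctrl and 4.84 to 4.87 kb in Cadict.

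**Figure D2:**
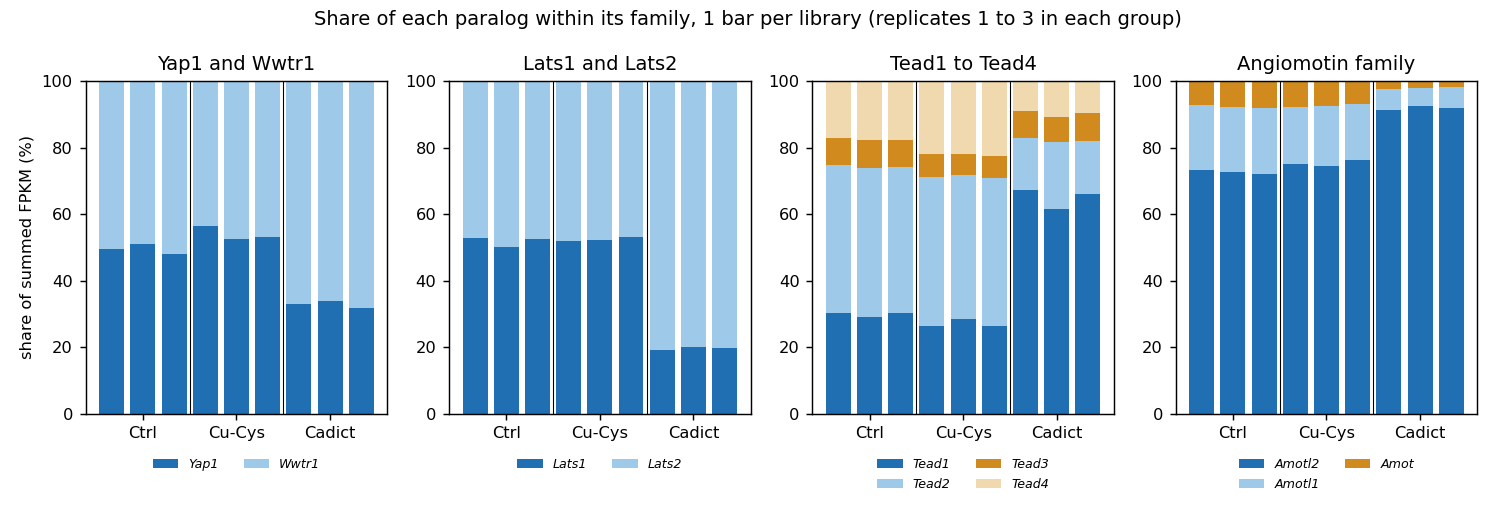
Share of each paralog in the summed FPKM of its family (y axis, percent), 1 stacked bar per library in order of replicate number, grouped by treatment on the x axis. Within-library shares do not depend on the scaling between libraries; in all 3 Cadict bars the Wwtr1, Lats2, Tead1 and Amotl2 shares are larger than in any Ctrl or Cu-Cys bar.

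Amotl2, a target gene whose angiomotin-like protein binds Yap1 and activates Lats kinases, was at 201, 202 and 192 CPM in Ctrl, at 173, 167 and 177 CPM in Cu-Cys and at 464, 412 and 485 CPM in Cadict. The groups did not overlap, with Cu-Cys lowest and Cadict highest. The log2 fold change of Cadict against Ctrl was 1.19 (SE 0.06, adjusted p = 2e-11, edgeR), 0.24 (adjusted p = 0.0025) on library totals and -0.11 (adjusted p = 0.345, limma) on TPM. Among all tested genes, 82.6% had a lower log2 fold change than Amotl2. Its share of the summed FPKM of the angiomotin family, a description added after the values were seen, was 72.7% ± 0.611 in Ctrl, 75.3% ± 0.911 in Cu-Cys and 91.9% ± 0.603 in Cadict. The relatives Amot and Amotl1 fell, with log2 fold changes of -0.99 and -0.86 (edgeR adjusted p = 1.56e-07 and 4.9e-08).

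Ankrd1 encodes an ankyrin-repeat cofactor and is among the most used reporters of Yap1 activity. It was at 147, 151 and 146 CPM in Ctrl, at 157, 144 and 146 CPM in Cu-Cys and at 243, 271 and 253 CPM in Cadict. Ctrl and Cu-Cys overlapped, and Cadict was higher in each library, with replicate 2 highest here. The log2 fold change of Cadict against Ctrl was 0.79 (SE 0.05, adjusted p = 1.01e-09, edgeR). It turned to -0.17 (adjusted p = 0.00788) on library totals, where the mean FPKM was 116 ± 4.82 in Cadict and 131 ± 1.54 in Ctrl. Among all tested genes, 74.4% had a lower log2 fold change than Ankrd1. Ankrd1 was the only one of the 8 in the shortest of 4 equal classes of genes by effective length, in which the median log2 fold change of Cadict against Ctrl was 0.46, against -0.42 in the longest class, which held Wwtr1, Tead1, Lats1 and Lats2. Whether gene length has a part in these changes was not tested.

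Axl, a receptor tyrosine kinase tied to invasion and drug resistance, was the most abundant of the 8 by FPKM in Ctrl and Cu-Cys. In Cadict its mean FPKM was the highest, but its range overlapped that of Ankrd1. In Cadict replicate 2 Ankrd1 was above it, at 120 against 116 FPKM. Axl was at 838, 844 and 842 CPM in Ctrl, at 920, 876 and 906 CPM in Cu-Cys and at 714, 691 and 716 CPM in Cadict. The 3 groups did not overlap, and Cadict was lowest. Cadict against Ctrl gave a log2 fold change of -0.25 (SE 0.04, adjusted p = 7.43e-05, edgeR), and it was -1.20 on library totals, where the mean FPKM was 121 ± 4.62 against 280 ± 0.777. Among all tested genes, 46.8% had a lower log2 fold change, so Axl moved about as the middle of the transcriptome did.

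**Figure D3:**
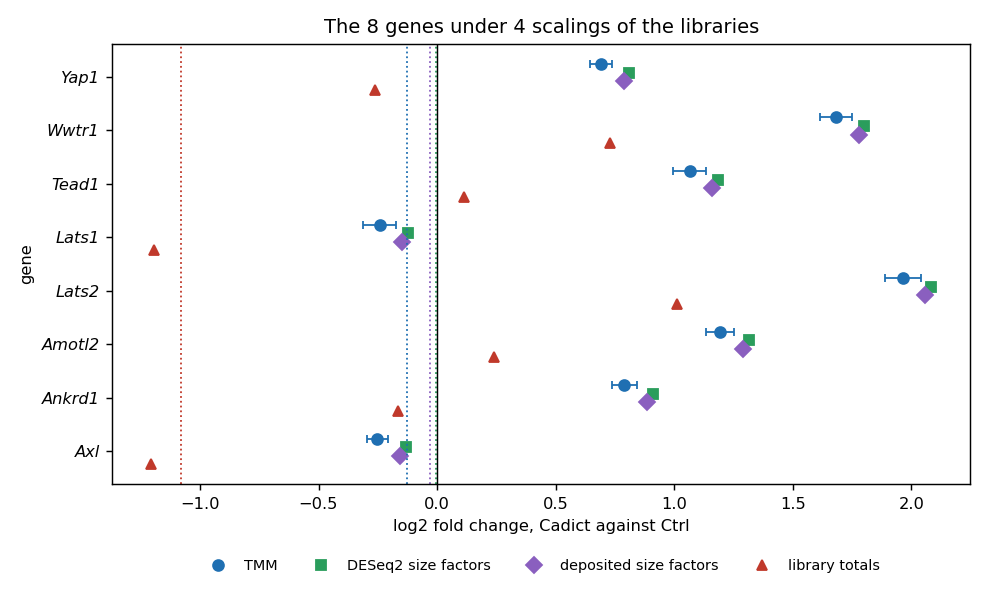
log2 fold change of Cadict against Ctrl (x axis) for each of the 8 genes (y axis) under 4 scalings of the libraries; the error bar is the SE under TMM, the dotted lines are the medians of all tested genes under each scaling and the black line marks 0. Yap1 and Ankrd1 lie above 0 under TMM, DESeq2 and deposited size factors and below 0 on library totals, and 6 of the 8 genes lie to the right of the all-gene median under every one of the 4.

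Under TMM, 6 of the 8 genes changed more in the positive direction than the median tested gene. The distance to that median was 2.09 for Lats2, 1.81 for Wwtr1, 1.32 for Amotl2, 1.19 for Tead1, 0.91 for Ankrd1 and 0.82 for Yap1 on the log2 scale. Lats1 and Axl lay close to the median, at -0.12 and -0.13. Without Cadict replicate 2 the log2 fold changes against Ctrl ran from -0.24 for Axl to 2.05 for Lats2, all 8 kept their direction, and the highest adjusted p was 0.0095, for Lats1 at -0.18. All 8 genes had groups that did not overlap between Cadict and Ctrl, as did 87.5% of all tested genes.

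Cu-Cys, which holds copper and cystine without the enzyme and the peptide conjugate, left the 8 genes near their Ctrl levels. By the edgeR test 0 of the 8 were called in either direction at the study's threshold, where 0.167% of tested genes were called higher and 1.47% lower, and DESeq2 and limma also called 0. At an adjusted p no higher than 0.05, Yap1 and Lats1 were higher and Amotl2 lower, which is 2 higher and 1 lower of 8, against 22.6% and 22.4% of tested genes. At an unadjusted p under 0.05 the counts were 4 and 1, against 3170 and 3107 of the 11949 tested genes. The 8 had a median log2 fold change of 0.05, against 0.01 over all tested genes. On library totals 0 were higher and 1 lower at the adjusted 0.05 level, against 15.5% and 28.8% of tested genes, with a median of -0.02 against -0.06.

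Yap1 was 1.14-fold higher in Cu-Cys than in Ctrl (log2 fold change 0.19, SE 0.05, adjusted p = 0.00346, edgeR), a change that did not pass the test on library totals (0.12, adjusted p = 0.0611). Amotl2 was 1.15-fold lower (-0.20, SE 0.06, adjusted p = 0.0113, edgeR) and missed the threshold without Cu-Cys replicate 2 (-0.18, adjusted p = 0.0545). Lats1 was 1.13-fold higher (0.18, SE 0.07, adjusted p = 0.0395, edgeR), and leaving out any single Ctrl library or Cu-Cys replicate 2 or 3 took it past 0.05, with values between 0.14 and 0.21 on the log2 scale. Lats2 and Axl were at 0.19 (adjusted p = 0.0571) and 0.10 (adjusted p = 0.0861), and both passed 0.05 under DESeq2 size factors, as did Lats2 without Cu-Cys replicate 1 (0.23, adjusted p = 0.0474, edgeR). Wwtr1 at -0.07, Tead1 at -0.05 and Ankrd1 at 0.01 overlapped Ctrl, with adjusted p = 0.422, 0.547 and 0.918 by the same edgeR test, and the sign of Ankrd1 turned on library totals. The groups did not overlap for 5 of the 8 genes, and for 61.2% of all tested genes.

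The nanodrug was also compared with Cu-Cys, which lacks the enzyme and the peptide conjugate, and the design cannot tell these components apart. Whether the doses were matched is not given in the sources used here. This comparison shares the Cadict libraries with the one above, and the Cu-Cys comparison shares its Ctrl libraries, so the 3 are not independent. Under TMM, Lats2, Wwtr1, Amotl2 and Tead1 were called higher in Cadict than in Cu-Cys, 4 of 8, and 0 were called lower, against 18.6% and 23.6% of tested genes. On library totals, and with limma on FPKM or TPM, the split was 0 higher and 2 lower (Lats1 and Axl). Of all tested genes, library totals called 5.76% higher and 47.7% lower, and limma on TPM 3% and 48.4%. With limma on FPKM the shares were 3.95% and 37.7% (pseudocount 1) or 5.4% and 46.7% (pseudocount 0.1). In the edgeR test at an adjusted p no higher than 0.05 the counts were 6 and 2, against 40.3% and 45.6%. At an unadjusted p under 0.05 they were 6 and 2 as well, against 4847 and 5467 of the 11949 tested genes.

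Lats2 was 3.43-fold higher in Cadict than in Cu-Cys (log2 fold change 1.78, SE 0.07, adjusted p = 3.8e-12, edgeR), and Wwtr1 was 3.37-fold higher (1.75, SE 0.07, adjusted p = 1.34e-12, edgeR). Amotl2 differed by 1.40 and Tead1 by 1.12 (adjusted p = 4.33e-12 and 3.58e-10, edgeR). On TPM, Amotl2 was at 0.23 (adjusted p = 0.0684, limma) and Tead1 turned to -0.04 (adjusted p = 0.748, limma). Ankrd1 differed by 0.78 and Yap1 by 0.50 under TMM, and both turned negative on library totals, to -0.10 (adjusted p = 0.0733) and -0.39 (adjusted p = 2.97e-06). Lats1 was lower by a log2 fold change of -0.42 (adjusted p = 3.88e-05) and Axl by -0.35 (adjusted p = 2.37e-06) in the edgeR test. The log2 ratio of Wwtr1 to Yap1 was 1.25 higher and that of Lats2 to Lats1 2.18 higher in Cadict than in Cu-Cys (exact permutation p = 0.1 for each, adjusted 0.12). The 8 had a median log2 fold change of 0.95, against -0.10 over all tested genes, and all 8 genes had groups that did not overlap, as had 85.0% of tested genes.

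The rest of the pathway was read from 6 lists written from general knowledge, of which some hold members of the 8. Under TMM their counts in Cadict against Ctrl stand beside 20.7% of tested genes called higher and 27.1% lower, 40.6% and 47.1% at an adjusted p no higher than 0.05 alone, and a median of -0.13. On library totals these became 6.93%, 51.5%, 18.1%, 73.1% and -1.08. Strand use of the counting is not given in the sources used here, so reads of antisense gene models cannot be told apart from those of Yap1, Ccn2, Dchs1, Gadd45a, Csnk1e, Mink1, Tgfb2 and Map4k2, whose exons such models overlap by 94 to 665 bases, or of Tead2, which overlaps Cd37 by 13 bases. In the kinase cassette, which phosphorylates Lats1 and Lats2 and includes them, 2 of 18 tested genes (11.1%) were called higher and 2 (11.1%) lower in Cadict against Ctrl, with a median of 0.04, both shares below those of all tested genes. On library totals 1 was higher and 7 lower. Map4k4, a kinase that can act on Lats in parallel to Stk3 and Stk4, rose with a log2 fold change of 1.38 (adjusted p = 2.48e-12, edgeR). On library totals and with limma on FPKM or TPM it was not called at the study's threshold, and on TPM it was at 0.08 (adjusted p = 0.477, limma). Its relatives Mink1 and Map4k2 fell with -1.91 (adjusted p = 1.98e-12) and -1.60 (adjusted p = 6.81e-10) in the edgeR test. Map4k2 was lower in Cu-Cys too, at -0.67 (adjusted p = 2.31e-05).

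Among upstream scaffolds and junction proteins, which tie the cascade to cell contacts, 3 of 18 tested genes (16.7%) were called higher and 3 (16.7%) lower in Cadict, and at an adjusted p no higher than 0.05 alone 5 (27.8%, against 40.6% of tested genes) were higher and 11 (61.1%, against 47.1%) lower, with a median of -0.42. On library totals 0 were called higher and 11 lower. Ajuba, a LIM protein that holds back Lats kinases, fell with a log2 fold change of -1.74 (adjusted p = 5.19e-13, edgeR). The protocadherin Dchs1 fell with -2.15 (adjusted p = 1.05e-05, edgeR) but on only 3 to 5 counts per Cadict library against 33 to 37 in Ctrl, and it was the 1 gene of these lists called in Cu-Cys, at -1.59 (adjusted p = 9.82e-05). The polarity scaffold Patj fell with -1.52 (adjusted p = 5.56e-05, edgeR), on 13 to 17 counts per Cadict library.

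The STRIPAK complex carries a phosphatase that switches off the upstream kinases. Of its 14 tested genes 3 (21.4%) were called higher and 3 (21.4%) lower in Cadict, against 20.7% and 27.1% of tested genes, with a median of 0.02, and on library totals 0 were higher and 7 lower. The catalytic subunit Ppp2cb rose with a log2 fold change of 1.64 (adjusted p = 3.89e-13), and the scaffold subunit Strip2 fell with -1.71 (adjusted p = 2.3e-05), both by the edgeR test. Strip2 rested on 5 to 19 counts per Cadict library, and in Cu-Cys it was at -0.66 (adjusted p = 0.0131, edgeR), a call lost without Ctrl replicate 1 or Cu-Cys replicate 2.

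Among coactivators and Tead partners, 3 of 7 tested genes (42.9%, against 20.7% of all) were called higher and 1 (14.3%, against 27.1%) lower in Cadict, with a median of 0.69. The 3 include Wwtr1 and Tead1, and on library totals the split was 1 higher and 3 lower, with a median of -0.26. Vgll4, a cofactor that competes with Yap1 for Tead factors and represses their targets, was at 149 CPM in Cadict and 23.5 CPM in Ctrl, a log2 fold change of 2.66 (SE 0.08, adjusted p = 9.61e-14, edgeR). Tead2 and Tead4 fell as given above, and Tead4 was higher in Cu-Cys, at 0.43 (adjusted p = 5.77e-05, edgeR).

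The list of Yap1 turnover and retention holds the casein kinases and ubiquitin ligase adaptors that mark the phosphorylated coactivator for degradation and the Ywha proteins that hold it in the cytoplasm. In Cadict 3 of its 11 tested genes (27.3%, against 20.7% of all) were called higher and 0 lower, and at an adjusted p no higher than 0.05 alone 10 (90.9%, against 40.6%) were higher and 1 lower, with a median of 0.76. The sign of this median rested on the scaling, since on library totals it was -0.19, against -1.08 over all tested genes. There 3 (27.3%, against 18.1% of all) were higher and 6 (54.5%, against 73.1%) lower at an adjusted p no higher than 0.05. Under both scalings the list median lay above that of all tested genes. The highest changes were those of Ywhag at 2.37 (adjusted p = 1.43e-15), Csnk1e at 1.82 (adjusted p = 3.2e-14) and Ywhab at 1.33 (adjusted p = 5.06e-13), all log2 fold changes by the edgeR test. Ywhab was at 0.02 on TPM. Ywhag was higher in Cu-Cys by 0.17 (adjusted p = 0.0113, edgeR), which did not pass the test on library totals (0.10, adjusted p = 0.146).

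The list of Yap1 target genes, which holds Lats2, Amotl2, Ankrd1 and Axl, split. In Cadict 8 of its 21 tested genes (38.1%, against 20.7% of all) were called higher and 6 (28.6%, against 27.1%) lower. The list median was -0.11, close to that of all tested genes, and on library totals 4 were higher and 11 lower. Both the median and the lower calls depended on the filter on low counts. With at least 10 counts in every library, 8 of 18 tested genes (44.4%, against 19.6% of all) were called higher. There 3 (16.7%, against 26.1%) were called lower, and the median was 0.54 against -0.11 over all tested genes. Gadd45a, a stress-induced growth arrest gene, was at 403 CPM in Cadict and 17.2 CPM in Ctrl, a log2 fold change of 4.55 (SE 0.07, adjusted p = 1.24e-16, edgeR). Ccn2, which encodes a matricellular protein and is a standard reporter of Yap1 and Taz, was at 231 CPM against 15.7 CPM, a log2 fold change of 3.88 (SE 0.07, adjusted p = 5.5e-16, edgeR), and it was also higher in Cu-Cys, at 0.91 (adjusted p = 5.94e-07, edgeR).

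Other target genes, chosen after their values were seen, show the width of the split. Ccn1, the relative of Ccn2, rose with a log2 fold change of 1.49 (adjusted p = 1.47e-12), the coagulation initiator F3 with 3.48 (adjusted p = 3.17e-12) and the growth factor Tgfb2 with 1.62 (adjusted p = 1.98e-09), by the edgeR test. On TPM, Ccn1 was at 0.18 and Tgfb2 at 0.10. Ccdc80, a secreted matrix protein, fell with -3.50 (adjusted p = 1.24e-12) and the guanine nucleotide exchange factor Arhgef17 with -2.11 (adjusted p = 8.42e-13). Fjx1 had 0 counts in every Cadict library and 6 to 12 in Ctrl, which at a floor of 3 counts per library is at least 1.69-fold lower, and it is among the 6 called lower.

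**Figure D4:**
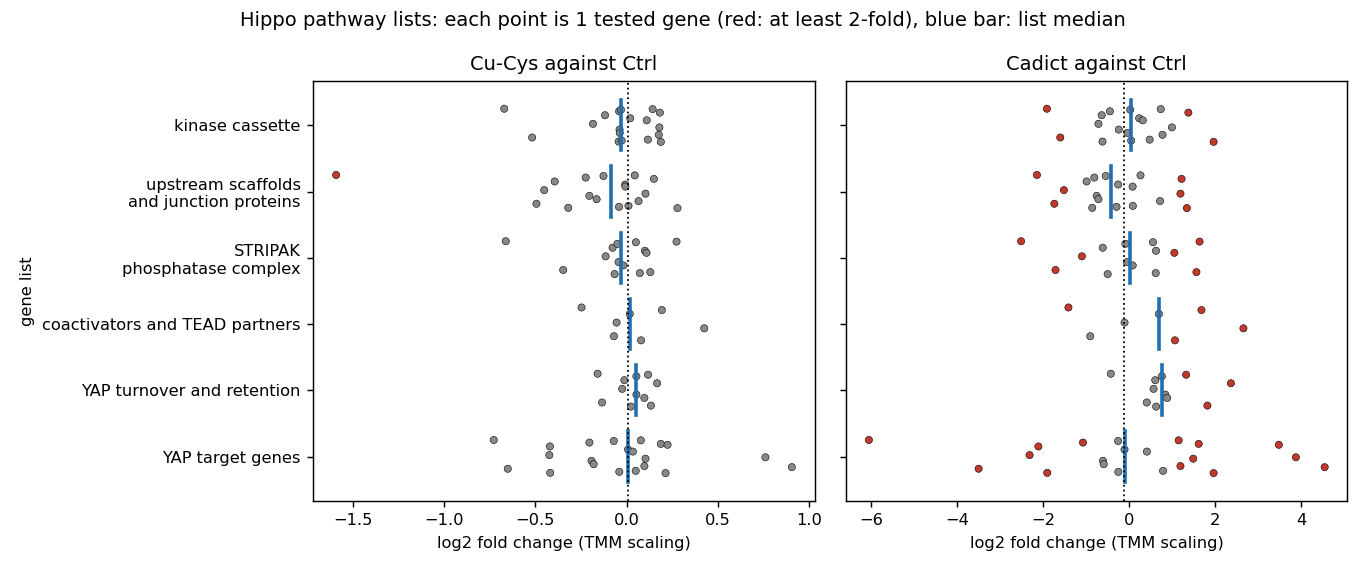
log2 fold change under TMM (x axis, a different range in each panel) of every tested gene of the 6 pathway lists (y axis), for Cu-Cys against Ctrl and for Cadict against Ctrl; blue bars are list medians, the dotted line is the median of all tested genes, and red points changed at least 2-fold. The leftmost Yap1 target in the Cadict panel is Fjx1, whose 0 counts make its fitted position depend on the prior count; in Cu-Cys the single red point is Dchs1.

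Profiles over the 9 libraries were compared by the Euclidean distance of log2 CPM after centring each gene on its Ctrl mean, among 8547 genes of at least 10 CPM on average. Between members the nearest pairs were Lats1 and Axl at 0.27, Tead1 and Amotl2 at 0.38 and Yap1 and Ankrd1 at 0.40. Nearest to Lats2 were Khdrbs1 at 0.17 and Cltc at 0.17, and to Wwtr1 they were Ell2 at 0.20 and Plekhb2 at 0.22. Nearest to Tead1 were Usp33 at 0.13 and Kif5b at 0.14, and to Amotl2 they were Slc25a40 at 0.16 and Ubr2 at 0.18. Yap1 was nearest to Acin1 and Slc39a14 at 0.10 each, Ankrd1 to Ssrp1 at 0.06 and Ube2e3 at 0.12, Lats1 to Dnaaf5 and Atm at 0.17 each, and Axl to Slc4a1ap at 0.11 and Map2k5 at 0.12.

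The labelled cell type was compared with marker lists, since Yap1 and Taz activity differs between cell types. Of 7 colon epithelial markers in the table, Epcam, Krt18, Cdh17 and Vil1 had at most 3 counts in every Ctrl library. The summed level of the list was 5.41 to 6.87 CPM in Ctrl, 3.97 to 4.43 in Cu-Cys and 24.1 to 26.2 in Cadict. Its 2 tested markers were both called higher in Cadict against Ctrl under TMM, where 20.7% of all tested genes were. Cdh1 went from 4.86 CPM in Ctrl to 12.8 CPM in Cadict, and Krt19 from 1.05 to 10.8 CPM. Fibroblast markers summed to 1045 to 1113 CPM in Ctrl, 543 to 557 in Cu-Cys and 202 to 222 in Cadict, with Lum at most 3 counts in every library. Of their 6 tested genes 4 were called lower in Cadict against Ctrl under TMM, where 27.1% of all tested genes were. Dcn went the other way, from 0.607 CPM in Ctrl to 1.08 CPM in Cadict. Leukocyte markers summed to 3.09 to 3.29, 2.46 to 2.91 and 15.7 to 18.4 CPM in the same order, nearly all of it Cd68, a lysosomal glycoprotein that other cells also make, at 3.02 CPM in Ctrl and 17.0 CPM in Cadict, with Ptprc, Csf1r and Cd8a at most 3 counts in Ctrl and Cadict. Endothelial markers summed to 1.05 to 1.95, 0.914 to 1.64 and 2.09 to 3.61 CPM. The part of these shifts in the changes of the 8 genes was not tested, and in bulk RNA fewer cells of a kind and less RNA per cell cannot be told apart.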

How the data were processed

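RNA from 9 MC38 libraries, 3 each of Ctrl, Cu-Cys and Cadict, was analysed from a single table. In it the authors deposited for each gene and library an expected count (an estimated read count, not normalized), FPKM and TPM values, and a signal that equals the count divided by 1 size factor per library. The submitters' processing notes name HISAT2 2.1.0, Bowtie2 2.3.4.3 and RSEM 1.3.1, with mouse and human builds and no roles; strand use is not given in the sources used here. The methods text names TRIzol and an Illumina instrument, the labels a column kit and DNA nanoballs. Columns labelled CC were taken as Cu-Cys by its initials and CCGE as Cadict from its components; 12 columns of group averages were not used.

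The expected counts, rounded to whole numbers, went into edgeR 4.0.16 under R 4.3.3 (filterByExpr, TMM, 1 quasi-likelihood model of the 3 groups, contrasts between groups, Benjamini-Hochberg adjustment over 11949 genes), and the code was tested on simulated data. limma 3.58.1 and DESeq2 1.42.0 were alternatives. Fold changes from limma are on the log2(value + pseudocount) scale, with pseudocounts of 1 and 0.1. Ratios of paralogs used FPKM within a library and scipy 1.17.1. The named genes were the 8 members, the 3 other genes of each list with the largest change in Cadict against Ctrl and the 1 with the largest in Cu-Cys against Ctrl, and the 2 nearest profiles of each member. A gene that this rule picks is not reported here. The 8 genes and all lists were chosen with earlier results of these data known. The range of 17905771 to 18293056 counts per library makes 3 counts 0.164 to 0.168 CPM.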

Additional observations from a re-analysis of the deposited data

How the results depend on the processing

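The count of the 8 genes called in Cadict against Ctrl (4, all higher) was 3 on library totals (Lats2 higher, Lats1 and Axl lower) and 2 with limma on FPKM (either pseudocount) or TPM (Lats1 and Axl, both lower), so that none of the 4 stayed called with limma. That in Cadict against Cu-Cys (4, all higher) was 2, Lats1 and Axl, both lower, with library totals and with the same 3 limma settings. The limma settings change unit, test and scaling together. Genes called in Cu-Cys against Ctrl numbered 196, and 119 with at least 10 counts in every library, 71 with limma on FPKM (pseudocount 1) and 116 on TPM. Yap1 targets called in Cadict against Cu-Cys (14) were 8 with limma on FPKM (pseudocount 1). In Cadict against Ctrl, Yap1 turned to -0.26 (library totals, and limma on FPKM with pseudocount 1), -0.27 (pseudocount 0.1) and -0.60 (TPM), and Ankrd1 to -0.17 (library totals), -0.18 (FPKM, either pseudocount) and -0.52 (TPM). On TPM, Tead1 turned to -0.23 and Amotl2 to -0.11. Tead3 turned to 0.0121 under DESeq2 size factors. In Cadict against Cu-Cys, Yap1 turned to -0.39 (library totals), -0.38 and -0.39 (FPKM) and -0.65 (TPM), Ankrd1 to -0.10, -0.11 (FPKM, either pseudocount) and -0.38, and Tead1 to -0.0423 on TPM. In Cu-Cys against Ctrl, values near 0 turned: Ankrd1 to -0.0603 (library totals), -0.0154 (at least 10 counts), -0.0648 and -0.0653 (FPKM) and -0.14 (TPM), and from -0.0368 without Cu-Cys replicate 1 to 0.0334 without Cu-Cys replicate 2, Axl to -0.0405 and Lats2 to -0.0025 on TPM. The log2 ratio of Lats2 to Lats1 in that comparison turned to 0.0116 with expected counts, and ran from -0.0632 to 0.0103 with 1 library left out, the latter without Ctrl replicate 2. The cause of these moves was not tested. With 1 library left out, the 8 genes gave 3 to 4 calls in Cadict against Ctrl.

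Residual r between same-numbered libraries was -0.20 to 0.15 over 8551 genes, and -0.24 to 0.30 between differently numbered ones. Residuals centred within 3 libraries are tied to each other, so this cannot decide whether numbers are pairs, and they were not treated as such. With the replicate number as a block the 8 genes still gave 4 calls for Cadict against Ctrl, 0 for Cu-Cys against Ctrl and 4 between the treatments. Of the named genes' values under alternatives, 818 kept their direction and side of the 0.05 threshold. Of the rest, 33 went above that threshold, 12 came under it and 28 turned direction. Depth limits the lowest genes, such as Fjx1 and Dchs1.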
